A study of Camellia sinensis with 24 samples.

Results

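Tea roots of genotype “1601” that had no K on their own side of a split-root box (Sp.SK) were compared with roots of the same genotype that had K on both sides (U.NK). The comparison asked what a local lack of K did to gene expression in roots of a plant that was still supplied through its other side. Its members were chosen by the labels alone and made up 6 of the 24 libraries of the series, 3 of Sp.SK and 3 of U.NK. The Sp.SK roots grew in 0 mM K2SO4 while the rest of the same root system grew in 1 mM, and the U.NK roots grew in 1 mM on both sides. Used beside them were the Sp.NK roots of “1601” (1 mM on their own side and 0 mM on the other, from the same boxes as Sp.SK), its U.SK roots (0 mM on both sides), and both groups of “1511”, the genotype of the same F1 population that the study treats as tolerant to low K. All were rooted cuttings of tea (Camellia sinensis), precultured with K for 60 d and treated for 5 d in hydroponic boxes of 12 plants, with 3 replicates per treatment. Each genotype is 1 clone and each library is whole root tissue. The sources do not say outright that each replicate was a box of its own, so the p-values measure the spread between these samples.

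Potassium is the main inorganic cation of plant cells. Roots take it up through KT/HAK/KUP transporters and Shaker-type channels, which calcium-dependent CBL-CIPK kinases activate, and the plasma membrane proton pump and vacuolar pumps provide the driving force. In Arabidopsis, K shortage is known to act on jasmonate, ethylene and reactive oxygen signalling, and jasmonate in turn switches on defence proteins such as chitinases, thaumatin-like proteins and protease inhibitors. In a split-root plant the K-free roots still exchange sap and signals with roots that have K. Sp.SK and U.NK roots differ in the K on their own side and also in the K supplied to the whole plant. Their comparison cannot tell the effects of these apart.

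The Sp.SK libraries held 18279912, 19151351 and 22525843 counts, more than the 13264171, 17860043 and 13214833 counts of the U.NK libraries, and the part of this difference in depth in the results was not tested. Log2 levels correlated across genes with r of 0.955 to 0.979 among the Sp.SK libraries, 0.976 to 0.980 among the U.NK libraries and 0.924 to 0.954 between the groups (genes are not independent replicates). Sp.SK replicate 1 was the library that correlated least with the others of its group. The biological coefficient of variation, the relative spread between replicates, was 0.302 among Sp.SK and 0.176 among U.NK roots. Of markers for cell types, the 182 tested genes of dividing cells (cyclins, core histones, kinesins, MCM helicases) summed to 6324, 5526 and 5239.6 CPM (counts scaled to the library's size) on Sp.SK roots, against 5111, 5316 and 5745 CPM on U.NK roots, and the 58 Casparian strip and dirigent genes, which belong to the root endodermis and to lignin deposition, to 1536, 1591 and 1837 CPM, against 1892, 1655 and 1933 CPM. The 52 genes of photosynthesis summed to 1693, 1815 and 1598 CPM, against 1891, 1769.8 and 1789.9 CPM. All of these sums overlapped between the groups. In whole roots fewer cells of a type and less RNA per cell cannot be told apart.

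Fewer genes rose than fell on the K-free side. Of 35557 genes tested, 837 were higher and 1717 were lower in Sp.SK than in U.NK roots at an adjusted p below 0.05, together 7.18% of the genes tested (2.35% higher, 4.83% lower). Adjusted p here and below is that of edgeR's quasi-likelihood test with Benjamini-Hochberg adjustment over all genes tested, and a gene that passed is said to be called, to rise or to fall. The decreases were also deeper, with a median log2 fold change of -1.81 among the called lower genes and 0.98 among the called higher ones. A log2 fold change past -2 was found in 738 lower genes and past 2 in 119 higher genes. The 6 libraries did not overlap in 1704 of the lower and 828 of the higher genes, where 32.7% of all tested genes showed no overlap. The count of calls depended on single libraries: with 1 Sp.SK library left out it was 1042 (replicate 1), 1386 (replicate 2) and 1983 (replicate 3), and with 1 U.NK library left out 1630 (replicate 1), 1046 (replicate 2) and 1273 (replicate 3), with more lower than higher genes each time. A Pfam description was attached to 68.85% of the tested genes, to 1324 of the lower and to 617 of the higher genes, and what follows is given by those descriptions.

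**Figure D1:**
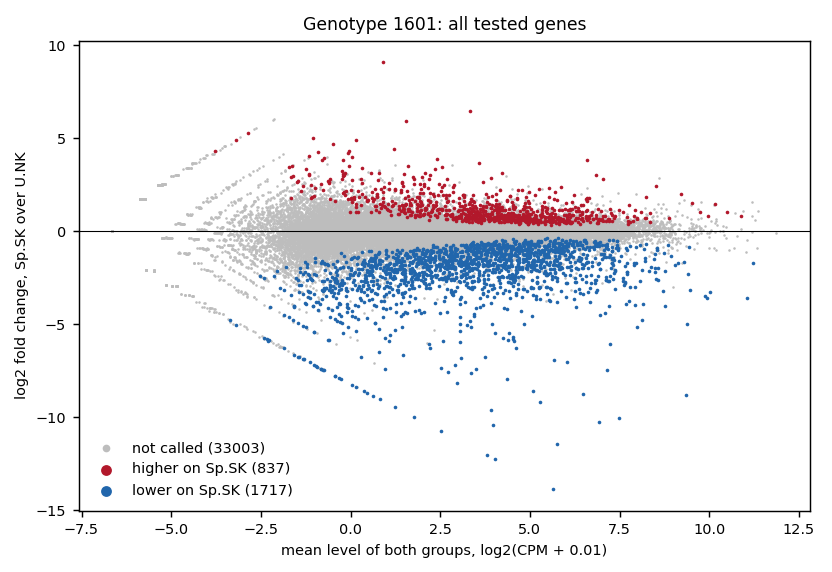
Each point is a tested gene of “1601”, with its mean level in the Sp.SK and U.NK libraries on the x axis (log2(CPM + 0.01)) and its log2 fold change, Sp.SK over U.NK, on the y axis. Colours mark the 837 genes called higher and the 1717 called lower; the called lower genes reach further from 0 than the called higher ones.

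The lists with the highest shares of lower genes were cupins, defence proteins, wall-loosening enzymes, AP2/ERF transcription factors, lectin receptor kinases and heme peroxidases, whereas aquaporins, heat shock proteins and ribosomal proteins held more called higher than called lower genes. Over 48 lists made from the Pfam descriptions, the share of members called lower ran up to 32.8% for the cupins and 29.7% for the defence proteins, against 4.83% of all genes, and the share called higher up to 16.7% for the aquaporins, against 2.35% of all genes. The median log2 fold change of all tested genes was 0. These shares describe the lists and were not tested, and the lists were drawn up with earlier results of these data known.

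**Figure D2:**
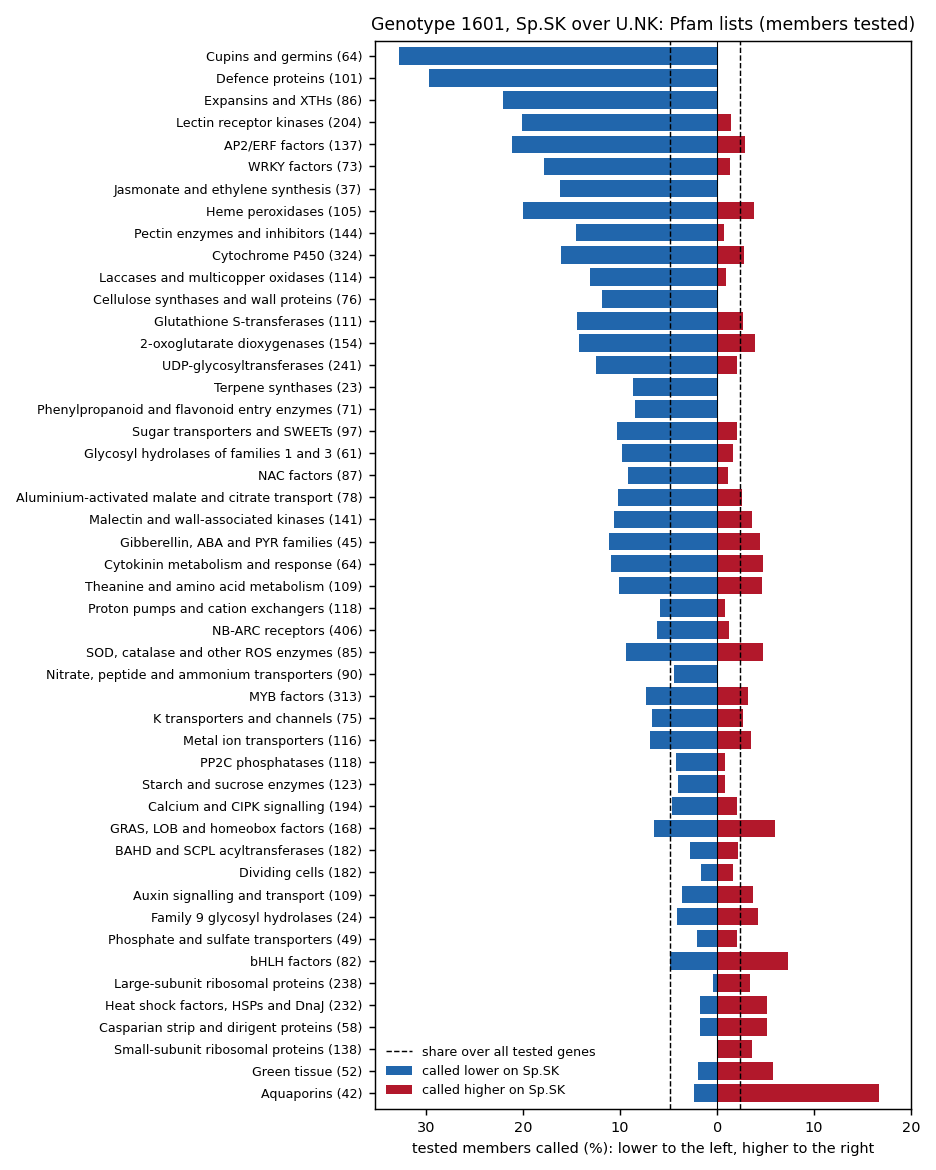
For each of the Pfam lists shown (number of tested members in brackets), the bar to the left is the percentage of members called lower and the bar to the right the percentage called higher, Sp.SK over U.NK in “1601”. Defence proteins and cupins reach furthest to the left, with 30 of 101 and 21 of 64 members, and aquaporins furthest to the right, with 7 of 42.

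Defence proteins, the pathogenesis-related families that act on microbes and on insect digestion (Bet v I, thaumatin, chitinase, barwin and protease inhibitor families), fell as a group without a called exception. Of 101 tested members, 30 fell and 0 rose, with a median log2 fold change of -1.21 over all 101. Their summed level was 3703, 4156 and 4869 CPM on Sp.SK roots, against 15379.6, 17129.7 and 17859 CPM on U.NK roots. Every Sp.SK library was far below every U.NK library, and the ratio of the mean sums was 0.253. With 1 library left out (named by its group and replicate number), 15 fell without Sp.SK 1 and 16 without Sp.SK 2. Among them was TEA022587 (scaffold 502, bases 47847 to 48925), a member of the Bet v I family of pathogenesis-related proteins that bind small hydrophobic ligands. It had 193, 247 and 559 CPM on Sp.SK roots, against 3428, 4168 and 4230.1 CPM on U.NK roots. Even the highest Sp.SK library was several-fold below the lowest U.NK library, and the log2 fold change was -3.57 ± 0.49, adjusted p = 0.000485 (± is the SE for log2 fold changes and the SD of 3 libraries for CPM). A further Bet v I gene, TEA017523 (scaffold 2181, bases 1093 to 2026), had 50.2, 83.8 and 113 CPM on Sp.SK roots, against 781, 651 and 849 CPM on U.NK roots (log2 fold change -3.21 ± 0.41, adjusted p = 0.00036). The thaumatin-like gene TEA032837 (scaffold 2510, bases 1307520 to 1308197) is of a family with antifungal members. It had 4.42, 0.295 and 3.94 CPM on Sp.SK roots, against 549, 2184 and 1159 CPM on U.NK roots. Its transcript was nearly gone from the K-free roots, with a log2 fold change of -8.81 ± 1.63, adjusted p = 0.00322.

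By Pfam family, 9 of 21 Bet v I genes, 5 of 10 potato inhibitor I genes, 6 of 21 class I chitinases and 4 of 14 genes described as wound-induced proteins fell, and none of these families held a called higher gene. Wound-induced TEA026102 (scaffold 2137, bases 1338019 to 1338557) had 0, 0 and 0 counts on Sp.SK roots, against 17, 111 and 41 counts on U.NK roots, which made it at least 24.2-fold lower when 3 counts per library are taken as the floor. Cupins, a family of small barrel proteins that includes the germin-like proteins of the wall, fell in 21 of 64 members, with 0 higher and a median log2 fold change of -1.5. With 1 library left out, 8 fell without Sp.SK 1, 9 without Sp.SK 2 or U.NK 3, 10 without U.NK 1, 11 without U.NK 2 and 13 without Sp.SK 3. Among them TEA026394 (scaffold 535, bases 65799 to 67083) had 22.9, 14.5 and 33.7 CPM on Sp.SK roots, against 237, 189 and 202 CPM on U.NK roots (log2 fold change -3.14 ± 0.53, adjusted p = 0.00188), and TEA015753 (scaffold 4796, bases 844876 to 863092) had 10.6, 8.64 and 7.81 CPM on Sp.SK roots, against 39.2, 28.8 and 31.2 CPM on U.NK roots (-1.87 ± 0.36, adjusted p = 0.00432). The groups did not overlap for either gene. The summed level of the cupins was 4572, 3292 and 1727 CPM on Sp.SK roots, against 3322, 2893 and 3371 CPM on U.NK roots, and these sums overlapped.

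**Figure D3:**
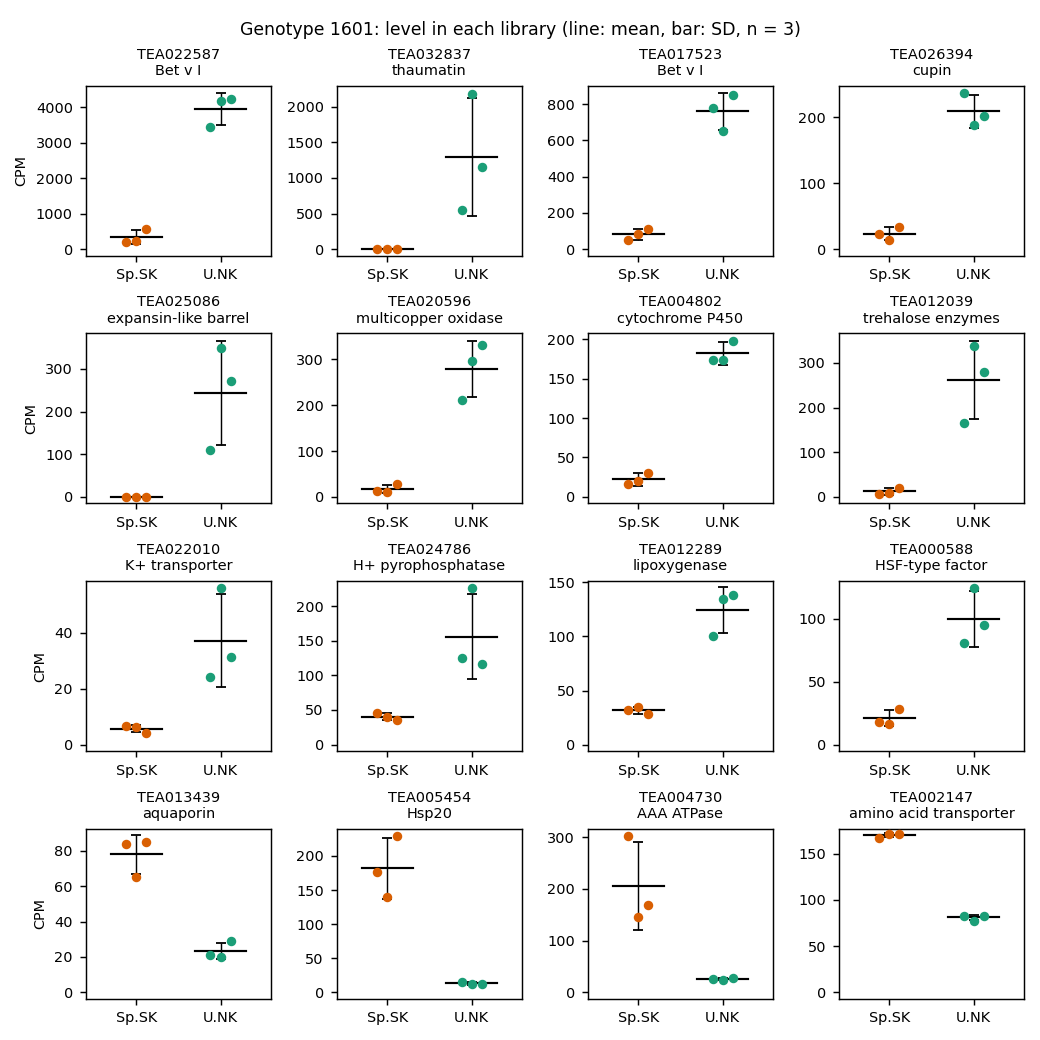
Level (CPM, y axis of each panel) of 16 named genes in the 3 Sp.SK and the 3 U.NK libraries of “1601”; dots are libraries, lines means and bars SD. The panels from TEA022587 to TEA000588 show genes that fell, and those of TEA013439, TEA005454, TEA004730 and TEA002147 genes that rose.

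Receptors that read the cell surface fell alongside. Lectin receptor kinases, membrane kinases whose outer part binds sugars or damaged wall, fell in 41 of 204 members and rose in 3 (17 fell without Sp.SK 1 and 24 without U.NK 2). TEA020931 (scaffold 2490, bases 742266 to 746113), with a mannose-binding lectin domain, had 5.33, 6.83 and 6.87 CPM on Sp.SK roots, against 28.3, 47.4 and 28.8 CPM on U.NK roots (log2 fold change -2.46 ± 0.31, adjusted p = 0.000262), and TEA005556 (scaffold 177, bases 2556350 to 2559525), a full receptor kinase, had 2.34, 1.67 and 1.82 CPM on Sp.SK roots, against 8.09, 6.54 and 5.74 CPM on U.NK roots (-1.8 ± 0.27, adjusted p = 0.000912). No library of one group reached those of the other. For a legume lectin gene newly assembled from these reads (scaffold 3491, bases 798808 to 803245), the K-free roots had no read at all: it had 0, 0 and 0 counts on Sp.SK roots, against 443, 3177 and 1234 counts on U.NK roots, and it was at least 695-fold lower. The U.NK libraries themselves differed widely in that gene. The same held for another newly assembled legume lectin gene (scaffold 3449, bases 109834 to 223020), with 0, 0 and 0 counts on Sp.SK roots, against 32, 199 and 91 counts on U.NK roots, at least 46.6-fold lower.

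The malectin and wall-associated kinases, receptors tied to the wall and its pectin, fell in 15 of 141 members and rose in 5 (9 fell without U.NK replicate 2). TEA021964 (scaffold 1125, bases 553574 to 556090) averaged 1.61 ± 0.35 CPM on Sp.SK roots and 9.47 ± 1.21 CPM on U.NK roots (log2 fold change -2.55 ± 0.33, adjusted p = 0.000389), whereas a newly assembled gene (scaffold 237, bases 477476 to 479583), with a galacturonan-binding domain of wall-associated kinases, rose. It had 19.1, 30.9 and 28.8 CPM on Sp.SK roots, against 1.99, 3.27 and 5.59 CPM on U.NK roots (log2 fold change 2.86 ± 0.57, adjusted p = 0.00516). Among NB-ARC receptors, the intracellular immune receptors of plants, 25 of 406 fell and 5 rose (11 fell without U.NK 2, 12 without Sp.SK 1, 14 without Sp.SK 2 and 16 without U.NK 3). The share lower, 6.16%, lay near the 4.83% of all genes, and the share higher, 1.23%, below their 2.35%. The neighbours TEA028037 and TEA028038 on scaffold 520 (bases 460510 and 476060 at their starts) both fell. TEA028037 had 0.0533, 0.147 and 0.424 CPM on Sp.SK roots, against 2.06, 3.33 and 3.02 CPM on U.NK roots (log2 fold change -3.65 ± 0.64, adjusted p = 0.00231), and TEA028038 had 0.426, 0.491 and 0.976 CPM on Sp.SK roots, against 4.41, 4.77 and 4.45 CPM on U.NK roots (-2.81 ± 0.42, adjusted p = 0.000879). Genes this alike and this close can share reads, which the counting could split between them. TEA028946 (scaffold 3581, bases 532009 to 539213), of the same family, rose and had 12.6, 4.27 and 5.47 CPM on Sp.SK roots, against 2.06, 1.22 and 1.13 CPM on U.NK roots (2.34 ± 0.44, adjusted p = 0.00372).

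Genes linked to jasmonate and ethylene fell in part. The list mixes synthesis enzymes with tify proteins, so its counts and sum are not those of the enzymes alone. In the list of 37 jasmonate and ethylene genes (lipoxygenases, allene oxide enzymes, tify proteins and ethylene precursor synthases), 6 fell and 0 rose (3 fell without Sp.SK 1 or U.NK 2). The lipoxygenase TEA012289 (scaffold 338, bases 775959 to 782660), of the family that opens the pathway by oxidizing linolenic acid, had 32.3, 34.5 and 28 CPM on Sp.SK roots, against 100.1, 135 and 138 CPM on U.NK roots. All Sp.SK libraries lay below all U.NK libraries, with a log2 fold change of -1.98 ± 0.35, adjusted p = 0.00229. The allene oxide cyclase TEA020075 (scaffold 238, bases 1090003 to 1091294), which closes the ring of the jasmonate precursor, had 11, 10.3 and 8.99 CPM on Sp.SK roots, against 28.6, 32.3 and 28.6 CPM on U.NK roots (log2 fold change -1.56 ± 0.33, adjusted p = 0.00741). The summed level of the list was 1722, 1964 and 1873 CPM on Sp.SK roots, against 2533, 2806 and 3144 CPM on U.NK roots, again without overlap.

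Transcription factor families split. AP2/ERF factors, which include the ethylene response factors, fell in 29 of 137 members and rose in 4 (11 fell without Sp.SK 1, 14 without Sp.SK 2 and 17 without U.NK 2), and WRKY factors, regulators of defence genes, fell in 13 of 73 and rose in 1 (6 fell without U.NK 2 and 7 without Sp.SK 1 or Sp.SK 2, and 0 rose in any of these 6 fits). The AP2 gene TEA000303 (scaffold 1268, bases 654824 to 655465) had 10.9, 4.71 and 11.5 CPM on Sp.SK roots, against 27.2, 27.4 and 33.6 CPM on U.NK roots (log2 fold change -1.7 ± 0.29, adjusted p = 0.00193), and the WRKY gene TEA005334 (scaffold 779, bases 366210 to 369493) had 3.36, 6.97 and 11.5 CPM on Sp.SK roots, against 30.3, 33.6 and 51.2 CPM on U.NK roots (-2.39 ± 0.49, adjusted p = 0.00567). These genes did not overlap between the groups. The AP2 gene TEA030964 (scaffold 1748, bases 648349 to 653271) went the other way and had 13.1, 14.9 and 14.8 CPM on Sp.SK roots, against 4.27, 3.38 and 3.55 CPM on U.NK roots (1.94 ± 0.27, adjusted p = 0.000556). In the MYB family 23 of 313 fell and 10 rose, and in the NAC family 8 of 87 fell and 1 rose (4 to 7 and 0 to 1 with 1 library left out). The MYB shares were 7.35% lower and 3.19% higher, against 4.83% and 2.35% of all genes. The MYB gene TEA027440 (scaffold 4311, bases 359428 to 363323) averaged 6.23 ± 2.13 CPM on Sp.SK roots and 40.7 ± 15.1 CPM on U.NK roots (-2.71 ± 0.32, adjusted p = 0.000195). Homeobox, GRAS and LOB factors, many of them regulators of growth and organ formation, rose in 10 and fell in 11 of 168 members (5.95% and 6.55%). The bHLH factors rose in 6 and fell in 4 of 82 (7.32% and 4.88%, and 1 to 7 and 2 to 4 genes with 1 library left out). In both lists the share higher lay above the 2.35% of all genes, and the share lower stood against their 4.83%. Of the homeobox genes, the leucine zipper gene TEA014446 (scaffold 41, bases 2115743 to 2117340) rose and had 76, 64.2 and 77.6 CPM on Sp.SK roots, against 20.9, 17.9 and 21.6 CPM on U.NK roots (1.85 ± 0.34, adjusted p = 0.00322), while TEA025544 (scaffold 3650, bases 1921573 to 1925037), of the same class, fell and had 22.8, 11.2 and 13.7 CPM on Sp.SK roots, against 75.2, 96.9 and 76.7 CPM on U.NK roots (-2.38 ± 0.31, adjusted p = 0.000393). The heat shock factor gene TEA000588 (scaffold 4738, bases 242479 to 245432) fell and had 18.3, 16.1 and 28.4 CPM on Sp.SK roots, against 80.7, 124 and 94.7 CPM on U.NK roots (-2.26 ± 0.41, adjusted p = 0.0029). Without U.NK replicate 2, the library whose removal lowered these counts most, 10 MYB genes fell and 1 rose, and 3 homeobox, GRAS and LOB genes fell and 1 rose.

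Enzymes that loosen and remodel the primary wall were lower on the K-free side. Expansins, which loosen the wall without cutting it, and xyloglucan endotransglucosylases (XTHs), which cut and rejoin xyloglucan, fell in 19 of 86 members and rose in 0 (7 fell without Sp.SK 1 and 11 without Sp.SK 2 or U.NK 2, and 6 where each of the 6 libraries had to hold at least 10 counts). Their summed level was 1096, 1296 and 1603 CPM on Sp.SK roots, against 2323, 3407 and 2712 CPM on U.NK roots, a ratio of means of 0.473 with no overlap. The deepest fall was at 1 place, scaffold 3629. There TEA025086 (bases 89362 onwards), with the double-psi beta-barrel of expansin-like proteins, had 0.213, 0 and 0.339 CPM on Sp.SK roots, against 110.1, 349 and 270.4 CPM on U.NK roots. Its transcript was all but absent from the K-free roots (log2 fold change -10.27 ± 1.67, adjusted p = 0.00138). TEA025076, which starts at base 74528 of the same scaffold and carries the same barrel together with an RNA recognition motif, had 2, 0 and 0 counts on Sp.SK roots, against 827, 1814 and 2183 counts on U.NK roots, a ratio of 3370.3 with a 95% counting interval of 932 to 27838 (exact binomial, counting error only). As near neighbours of 1 family they may share reads.

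Pectin enzymes and their inhibitors, which set how stiff the pectin of the wall is, fell in 21 of 144 members and rose in 1 (13 fell without Sp.SK replicate 1). The pectin methylesterase inhibitor TEA003962 (scaffold 762, bases 842838 to 864511) had 1, 0 and 2 counts on Sp.SK roots, against 28, 140 and 85 counts on U.NK roots, a ratio of 118 (95% counting interval 39.9 to 575). TEA026831 (scaffold 874, bases 1626246 to 1627247), with both a pectinesterase and an inhibitor domain, had 2.93, 2.95 and 3.52 CPM on Sp.SK roots, against 13, 10.6 and 11.7 CPM on U.NK roots (log2 fold change -1.91 ± 0.30, adjusted p = 0.00118). The single riser of the list was the BURP-domain gene TEA005172 (scaffold 1973, bases 108666 to 115419), with 4.32, 6.53 and 13.1 CPM on Sp.SK roots, against 0.957, 1.05 and 1.43 CPM on U.NK roots (2.8 ± 0.57, adjusted p = 0.00832). Cellulose synthases and structural wall proteins fell in 9 of 76 and rose in 0 (5 fell without Sp.SK 1 or U.NK 2), and their summed level was 1595, 3009 and 2851 CPM on Sp.SK roots, against 4110.0, 3499 and 4569 CPM on U.NK roots. Among the cellulose synthases, a newly assembled gene (scaffold 2360, bases 1747019 to 1758040) had a log2 fold change of -2.16 ± 0.28, adjusted p = 0.000389, and TEA032532 (scaffold 2501, bases 1117416 to 1126653) had one of -1.96 ± 0.27, adjusted p = 0.000471.

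Enzymes of lignin and of wall oxidation followed. Multicopper oxidases, among which the laccases join lignin units in the wall, fell in 15 of 114 members and rose in 1 (5 fell without Sp.SK 1, 6 without U.NK 3 and 7 without Sp.SK 2), and their summed level was 1209.8, 1525 and 1485 CPM on Sp.SK roots, against 2676, 2523 and 3056 CPM on U.NK roots. TEA020596 (scaffold 98, bases 2772931 to 2776659) had 13.6, 11.3 and 27.5 CPM on Sp.SK roots, against 212, 296 and 331 CPM on U.NK roots, a 15.9-fold decrease (log2 fold change -4.0 ± 0.63, adjusted p = 0.00116). TEA020236 (scaffold 599, bases 544185 to 548437) had 36.4, 74.5 and 116 CPM on Sp.SK roots, against 334, 299 and 404 CPM on U.NK roots (-2.19 ± 0.42, adjusted p = 0.00411). In both genes the groups stood clearly apart. Heme peroxidases, which make and use hydrogen peroxide in the wall, fell in 21 of 105 members and rose in 4 (8 fell without Sp.SK 2, 9 without Sp.SK 1 and 12 without U.NK 3). The neighbours TEA015018 and TEA015011 on scaffold 313 (bases 561575 and 598980 at their starts) fell, with log2 fold changes of -2.26 ± 0.32, adjusted p = 0.00049 for TEA015018 and -1.97 ± 0.29, adjusted p = 0.000825 for TEA015011. In contrast, the peroxidase TEA011115 (scaffold 879, bases 44904 to 46373) rose and had 80.7, 32 and 39.4 CPM on Sp.SK roots, against 10.2, 13.6 and 11.5 CPM on U.NK roots (2.1 ± 0.43, adjusted p = 0.00552). The Casparian strip and dirigent genes, among which dirigent proteins steer the coupling of lignin units, gave 3 higher and 1 lower of 58. These shares were 5.17% and 1.72%, against 2.35% and 4.83% of all genes. With 1 library left out, 1 to 3 rose and 0 to 2 fell. A pair of newly assembled dirigent genes start at the same base, 1410638 of scaffold 2859, so their reads cannot be told apart unless the counting used strand, which the sources used here do not state. The first of them (scaffold 2859, bases 1410638 to 1411611) had 11.9, 2.8 and 3.18 CPM on Sp.SK roots, against 0.809, 0.721 and 1.06 CPM on U.NK roots (2.79 ± 0.55, adjusted p = 0.00458).

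Reactive oxygen enzymes other than peroxidases gave 4 higher and 8 lower of 85 (4.71% and 9.41%, against 2.35% and 4.83% of all genes). All 5 called genes with ferric reductase domains, of 13 tested, fell. Among them TEA011880 (scaffold 639, bases 1543487 to 1551420) had 35.9, 33.4 and 52.3 CPM on Sp.SK roots, against 135, 117 and 153 CPM on U.NK roots (log2 fold change -1.74 ± 0.23, adjusted p = 0.000393). The glutaredoxin TEA012987 (scaffold 8597, bases 39304 to 40452), of a family that reduces disulfides with glutathione, rose and had 58.6, 56.8 and 53.8 CPM on Sp.SK roots, against 14.1, 14.1 and 16.3 CPM on U.NK roots (1.93 ± 0.33, adjusted p = 0.00219). Without Sp.SK replicate 1, Sp.SK replicate 2 or U.NK replicate 3, 4 genes of the list fell. Glutathione S-transferases, which detoxify by coupling to glutathione, fell in 16 of 111 and rose in 3. The largest of their named changes belonged to TEA026132 (scaffold 4490, bases 691340 to 696657), with 1.6, 0.442 and 1.06 CPM on Sp.SK roots, against 14, 17.5 and 14.9 CPM on U.NK roots (-3.9 ± 0.60, adjusted p = 0.00099), and a newly assembled gene (scaffold 656, bases 869731 to 876476), with 15.1, 12.7 and 17.5 CPM on Sp.SK roots, against 109, 179 and 125 CPM on U.NK roots (-3.18 ± 0.48, adjusted p = 0.000858).

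The large enzyme families of specialised metabolism fell more often than they rose. Cytochrome P450 genes fell in 52 of 324 members and rose in 9, UDP-glycosyltransferases in 30 of 241 against 5, and 2-oxoglutarate dioxygenases in 22 of 154 against 6. Without Sp.SK replicate 1, 30 P450 genes and 16 glycosyltransferases fell, and without Sp.SK replicate 2, 19 glycosyltransferases. When single libraries were left out, the number that rose was 1 to 8 for the P450 genes (lowest without U.NK 2), 0 to 4 for the glycosyltransferases (0 without Sp.SK 1, U.NK 2 or U.NK 3) and 2 to 5 for the dioxygenases (2 without Sp.SK 1, U.NK 1 or U.NK 2). The P450 gene TEA004802 (scaffold 4947, bases 38140 to 43709) had 16, 19.5 and 30.8 CPM on Sp.SK roots, against 174, 173 and 198 CPM on U.NK roots, 8.2-fold lower (log2 fold change -3.04 ± 0.41, adjusted p = 0.000459). TEA030439 (scaffold 2613, bases 514959 to 517419) had 9.16, 12.8 and 20.7 CPM on Sp.SK roots, against 91.2, 61.1 and 101 CPM on U.NK roots (-2.57 ± 0.37, adjusted p = 0.000686). TEA014018 (scaffold 292, bases 444957 to 448220) was one of the P450 genes that rose, with 52.9, 37.7 and 49 CPM on Sp.SK roots, against 13.7, 12.1 and 12.5 CPM on U.NK roots (1.87 ± 0.29, adjusted p = 0.00103). The P450 gene TEA026323 (scaffold 1492, bases 2605612 to 2609955) had 0, 0 and 0 counts on Sp.SK roots, against 373, 84 and 32 counts on U.NK roots and was at least 79.5-fold lower, although U.NK replicate 1 gave most of its reads. Of the glycosyltransferases, which attach sugars to small molecules, TEA023623 (scaffold 129, bases 199902 to 201314) had 1, 1 and 0 counts on Sp.SK roots, against 186, 715 and 491 counts on U.NK roots, a ratio of 973 (95% counting interval 269 to 8038), and a newly assembled gene (scaffold 1024, bases 1860961 to 1891053) had 2.29, 2.06 and 3.22 CPM on Sp.SK roots, against 14.4, 47 and 26.9 CPM on U.NK roots (-3.54 ± 0.40, adjusted p = 0.000165). Phenylpropanoid and flavonoid entry enzymes fell in 6 of 71 and rose in 0, while the BAHD and SCPL acyltransferases, to which tea's catechin-modifying enzymes belong, gave 4 higher and 5 lower of 182 (1 to 3 and 3 to 4 with 1 library left out). The acyltransferase shares, 2.20% higher and 2.75% lower, stood against 2.35% and 4.83% of all genes. Outside the lists, the family with the highest share of lower genes among the 702 families with at least 10 tested genes was that of berberine bridge enzyme-like oxidases, in which 10 of 17 genes fell.

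Transporters of K itself changed little as a group. Of 75 tested K transporters and channels, 2 rose and 5 fell (0 to 3 and 4 to 5 with 1 library left out), a share near that of all genes, and their summed level was 1585, 1918 and 1883 CPM on Sp.SK roots, against 1952, 1772 and 1681 CPM on U.NK roots, with overlap. Of the named genes of this list, TEA022010 and TEA023021, both of the KT/HAK/KUP type, fell, and TEA018874 and TEA004427 rose. The larger rise was that of TEA018874, with a log2 fold change of 2.97. Its call was lost without U.NK replicate 2 (adjusted p = 0.0786) or U.NK replicate 3 (0.0519). It was also lost with DESeq2 on the 6 libraries (adjusted p of that test = 0.0503). TEA022010 (scaffold 1271, bases 480121 to 486403) had 6.5, 6.38 and 4.28 CPM on Sp.SK roots, against 24.3, 55.8 and 31.3 CPM on U.NK roots. It was 6.5-fold lower on the K-free side, in every library (log2 fold change -2.7 ± 0.51, adjusted p = 0.00375). TEA023021 (scaffold 1846, bases 1162785 to 1167726) was a low gene with 0.0533, 0.0982 and 0.17 CPM on Sp.SK roots, against 1.47, 1.33 and 1.06 CPM on U.NK roots (-3.47 ± 0.68, adjusted p = 0.00446). The ion channel TEA004427 (scaffold 5767, bases 357026 to 368760) rose and had 3.78, 3.88 and 4.88 CPM on Sp.SK roots, against 1.91, 1.77 and 0.906 CPM on U.NK roots (1.44 ± 0.38, adjusted p = 0.0241), but its call was lost without Sp.SK replicate 1 (0.0533), Sp.SK replicate 2 (0.0515), Sp.SK replicate 3 (0.0704), U.NK replicate 2 (0.0663) or U.NK replicate 3 (0.115) (adjusted p in brackets). The kinases that act on such channels belong to the calcium and CIPK list, where 4 of 194 rose and 9 fell (2 to 6 and 3 to 8 with 1 library left out). TEA006064 (scaffold 6095, bases 1433435 to 1442553), a kinase with the NAF domain that marks CIPKs, rose and had 89.9, 61.5 and 55.5 CPM on Sp.SK roots, against 24.1, 27.8 and 33.5 CPM on U.NK roots (1.28 ± 0.22, adjusted p = 0.00219). The EF-hand gene TEA030247 (scaffold 694, bases 1291965 to 1295969), a calcium-binding protein, rose as well, with 27.2, 21.8 and 23.5 CPM on Sp.SK roots, against 13.7, 8.93 and 11.2 CPM on U.NK roots (1.1 ± 0.17, adjusted p = 0.000851). The named fallers of this list were TEA025057 and TEA018857. Their log2 fold changes ran from -1.76 to -1.49 and from -1.70 to -1.37 over 15 alternative fits, and both stayed called in all of them. Of the list 4.64% fell and 2.06% rose, near the shares of all genes (4.83% and 2.35%).

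Of 118 proton pumps and cation exchangers, 7 fell and 1 rose (4 fell without Sp.SK replicate 1). The share that fell, 5.93%, lay near the 4.83% of all genes. The proton-pumping pyrophosphatase TEA024786 (scaffold 308, bases 609468 to 618989), an enzyme of the vacuolar membrane, had 45.5, 39.8 and 35.7 CPM on Sp.SK roots, against 124, 227 and 116 CPM on U.NK roots. The groups were far apart, with a log2 fold change of -1.95 ± 0.33, adjusted p = 0.00198. The P-type ATPase TEA002424 (scaffold 3382, bases 1511089 to 1525872) had 4.16, 3.54 and 3.22 CPM on Sp.SK roots, against 9.05, 12.7 and 8.45 CPM on U.NK roots (-1.47 ± 0.26, adjusted p = 0.0022). Sugar transporters fell in 10 of 97 members and rose in 2 (3 fell without Sp.SK 2, 5 without Sp.SK 1 and 6 without U.NK 1 or U.NK 2 or U.NK 3), and the sugar transporter TEA013461 (scaffold 4821, bases 475632 to 480190) had 213, 219.5 and 307 CPM on Sp.SK roots, against 647, 367 and 489 CPM on U.NK roots (-1.03 ± 0.20, adjusted p = 0.00472). Nitrate, peptide and ammonium transporters gave 0 higher and 4 lower of 90, and metal ion transporters 4 higher and 8 lower of 116. Their shares lower, 4.44% and 6.90%, lay near the 4.83% of all genes. The share higher of the metal list, 3.45%, lay near 2.35%, that of all genes. With 1 library left out, 2 to 5 genes of the nitrate list and 2 to 5 of the metal list fell, and 1 to 5 of the metal list rose. In the metal list the heavy-metal-associated domain gene TEA015273 (scaffold 409, bases 1664184 to 1679367) rose to 34.3, 28.9 and 25 CPM on Sp.SK roots, against 5.08, 6.99 and 6.94 CPM on U.NK roots (2.21 ± 0.39, adjusted p = 0.0022), while the oligopeptide transporter TEA025765 (scaffold 2881, bases 724481 to 729515) fell to 3.68, 2.16 and 2.88 CPM on Sp.SK roots, against 24.1, 28.7 and 17.1 CPM on U.NK roots (-3.0 ± 0.61, adjusted p = 0.00575). Malate and MatE-type transporters, which release organic acids and flavonoids, gave 2 higher and 8 lower of 78 (0 to 1 and 3 to 6 with 1 library left out). The MatE gene TEA020129 (scaffold 4333, bases 7515 to 27653) averaged 12 ± 5.55 CPM on Sp.SK roots and 48.4 ± 0.517 CPM on U.NK roots (-2.01 ± 0.37, adjusted p = 0.00327).

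In sugar metabolism few genes were called, and the deepest called fall was that of a trehalose gene. Of 123 starch and sucrose genes, 1 rose and 5 fell (0 to 1 and 1 to 4 with 1 library left out). These shares, 0.81% higher and 4.07% lower, lay below the 2.35% and 4.83% of all genes. The summed level of the list was nevertheless lower on the K-free side. It was 7430, 8496 and 9501 CPM on Sp.SK roots, against 10440, 12860 and 11531 CPM on U.NK roots, without overlap (ratio of means 0.730). The trehalose gene TEA012039 (scaffold 833, bases 977777 to 990457), with both domains of the enzymes that make trehalose and its phosphate, a signal of sugar status, had 7.51, 8.94 and 20.5 CPM on Sp.SK roots, against 166, 338 and 280.3 CPM on U.NK roots. It was 21.1-fold lower on the K-free side (log2 fold change -4.4 ± 0.67, adjusted p = 0.000933). The study singled out genes of starch and cellulose metabolism, K transport and superoxide removal for the genotype it treats as tolerant to low K. It reported the starch and cellulose genes higher under K heterogeneity only in that genotype. The K transport and superoxide genes it reported as raised there under K stress, with no such rise in the genotype compared here. These genes were not called here, which does not test the changes reported for the tolerant genotype. For TEA026325 and TEA008079, of the glycosyl hydrolase families 9 and 1, adjusted p was 0.872 and 0.848. For TEA014414, a carbohydrate phosphorylase, and TEA023084, a nucleotidyl transferase, it was 0.883 and 0.879. For TEA016242, a membrane transport protein that the study relates to K transport, and TEA008360, a superoxide dismutase, it was 0.863 and 0.47. TEA019040, of glycosyl hydrolase family 3, had 7.35, 16.3 and 13.6 CPM on Sp.SK roots, against 79, 32.3 and 24.1 CPM on U.NK roots, a log2 fold change of -1.86 ± 0.69, adjusted p = 0.104. The libraries varied widely within each group, and the gene passed the threshold in 4 of the alternative fits, among them that on the 6 libraries alone.

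Water channels, chaperones and the translation machinery were among the lists with more risers than fallers. Aquaporins, the membrane channels for water and small solutes, rose in 7 of 42 members and fell in 1, with a median log2 fold change of 0.63. Their summed level was 28257, 17579 and 15122 CPM on Sp.SK roots, against 7877, 9109.6 and 12358 CPM on U.NK roots, and the ratio of the means was 2.08. With 1 library left out, the number that rose was 3 without U.NK 2 and 4 without Sp.SK 1 or U.NK 1. TEA013439 (scaffold 2727, bases 594074 to 596472) had 83.6, 65.3 and 85.1 CPM on Sp.SK roots, against 21.1, 20.2 and 28.8 CPM on U.NK roots, 3.34-fold higher in the K-free roots (log2 fold change 1.74 ± 0.34, adjusted p = 0.00417). A newly assembled aquaporin gene (scaffold 5628, bases 220055 to 221022) had 11.2, 12.6 and 13.3 CPM on Sp.SK roots, against 5.89, 7.37 and 6.87 CPM on U.NK roots (0.88 ± 0.16, adjusted p = 0.00312).

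Heat shock factors, heat shock proteins and DnaJ proteins, which keep other proteins folded, rose in 12 of 232 members and fell in 4. These shares, 5.17% higher and 1.72% lower, stood against 2.35% and 4.83% of all genes. The small heat shock protein TEA005454 (scaffold 1133, bases 244530 to 244943) had 176, 140.0 and 229 CPM on Sp.SK roots, against 15.5, 11.4 and 11.5 CPM on U.NK roots. All Sp.SK libraries were above all U.NK libraries, but the spread over the other groups of the series was wide for this gene (log2 fold change 3.83 ± 0.99, adjusted p = 0.023), and the call was lost without Sp.SK replicate 1 (0.0546), U.NK replicate 1 (0.0679), U.NK replicate 2 (0.101) or U.NK replicate 3 (0.0888). The small heat shock protein TEA032852 (scaffold 4273, bases 1119537 to 1120004) had 15.7, 6.58 and 5.3 CPM on Sp.SK roots, against 0.368, 0.444 and 1.96 CPM on U.NK roots (3.33 ± 0.93, adjusted p = 0.0331), and its call was lost without Sp.SK replicate 1 (0.138), Sp.SK replicate 2 (0.0526), U.NK replicate 1 (0.124) or U.NK replicate 2 (0.148). The Hsp70 gene TEA024518 (scaffold 2632, bases 1416853 to 1423351) rose by less and more evenly, with 52.2, 52.5 and 54.5 CPM on Sp.SK roots, against 30.1, 23.8 and 27.6 CPM on U.NK roots (0.96 ± 0.20, adjusted p = 0.0072), and kept its call without any 1 of the 6 libraries. For the whole list the number that rose was 1 without Sp.SK 1 or U.NK 2, 3 without U.NK 1 or U.NK 3 and 5 without Sp.SK 2.

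Large-subunit ribosomal proteins rose in 8 of 238 members and fell in 1, and small-subunit ribosomal proteins rose in 5 of 138 and fell in 0. The shares called higher, 3.36% and 3.62%, lay near the 2.35% of all genes. The medians of both lists lay above 0, at log2 fold changes of 0.35 and 0.37, and 119 of the 138 small-subunit genes had a positive log2 fold change. The summed level of the small-subunit genes was 15587, 11382 and 12608 CPM on Sp.SK roots, against 8739.7, 10211 and 10992 CPM on U.NK roots. TEA000251 (scaffold 4608, bases 331833 to 338453), of the L18e/L15 family, had 20.03, 20.4 and 19.4 CPM on Sp.SK roots, against 10.7, 10.6 and 10.04 CPM on U.NK roots (log2 fold change 0.93 ± 0.13, adjusted p = 0.000471), and TEA010016 (scaffold 70, bases 922829 to 926947), of the S13/S18 family, had 33.9, 24.8 and 22.9 CPM on Sp.SK roots, against 13, 16.3 and 14.6 CPM on U.NK roots (0.89 ± 0.16, adjusted p = 0.00234). Leaving out 1 library gave 1 to 4 higher genes for the large and 1 to 4 for the small subunit, lowest for both without Sp.SK replicate 1.

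Among amino acid genes, including those of theanine, the amide that tea roots make, 5 of 109 rose and 11 fell (2 to 5 and 5 to 11 with 1 library left out). The shares, 4.59% higher and 10.1% lower, stood against 2.35% and 4.83% of all genes. The amino acid transporter TEA002147 (scaffold 3690, bases 2585231 to 2594083) had 168, 171 and 172 CPM on Sp.SK roots, against 82.9, 77.2 and 82.7 CPM on U.NK roots (log2 fold change 1.07 ± 0.18, adjusted p = 0.00144), and TEA003908 (scaffold 3183, bases 394318 to 404056) had 9.11, 9.48 and 9.54 CPM on Sp.SK roots, against 1.47, 2.05 and 2.64 CPM on U.NK roots (2.19 ± 0.42, adjusted p = 0.00418). The amino acid permease TEA009395 (scaffold 3879, bases 206742 to 212904) fell and had 1.39, 1.28 and 2.38 CPM on Sp.SK roots, against 9.79, 6.04 and 7.47 CPM on U.NK roots (-2.19 ± 0.27, adjusted p = 0.00024). A further amino acid transporter, TEA030129 (scaffold 1804, bases 690074 to 696055), had 183, 23 and 7 counts on Sp.SK roots, against 0, 0 and 0 counts on U.NK roots and was at least 18.2-fold higher, but most of its reads came from Sp.SK replicate 1 and its call was lost without Sp.SK replicate 1 (0.101), U.NK replicate 1 (0.0623), U.NK replicate 2 (0.0848) or U.NK replicate 3 (0.0695).

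Of the 12 described genes with the largest rises, 7 kept their call without any 1 of the 6 libraries. TEA025126 (scaffold 1925, bases 706502 to 714441), with the amidase and metalloprotease domains of FtsH-type proteases, had 20.5, 13.7 and 25.8 CPM on Sp.SK roots, against 0.368, 0.222 and 0.0755 CPM on U.NK roots, so that it was close to 0 with K on both sides (6.45 ± 1.01, adjusted p = 0.0011). The AAA ATPase TEA004730 (scaffold 786, bases 297498 to 301175) had 303, 146 and 168 CPM on Sp.SK roots, against 24.7, 24.5 and 26.9 CPM on U.NK roots, 8.11-fold higher (3.02 ± 0.50, adjusted p = 0.00147). TEA029779 (scaffold 290, bases 249409 to 252765), an EamA-type membrane transporter, had 12.3, 12.3 and 5.47 CPM on Sp.SK roots, against 0.736, 0.388 and 0.906 CPM on U.NK roots (3.9 ± 0.74, adjusted p = 0.00453). The group 1 late embryogenesis abundant genes TEA028150 and TEA028151, of a family that accumulates in drying cells, lie next to each other on scaffold 14323 (bases 12560 and 15268 at their starts) and may share reads. TEA028151 had 4.0, 5.4 and 13.3 CPM on Sp.SK roots, against 0.809, 0.887 and 0.906 CPM on U.NK roots (3.12 ± 0.64, adjusted p = 0.00621) and TEA028150 had 1.49, 2.7 and 3.82 CPM on Sp.SK roots, against 0.221, 0.166 and 0.528 CPM on U.NK roots (3.16 ± 0.63, adjusted p = 0.00521). TEA031099 (scaffold 1778, bases 888125 to 890832), of a plant family of unknown function, had 6.82, 14.9 and 44.6 CPM on Sp.SK roots, against 2.13, 1.5 and 1.59 CPM on U.NK roots (3.67 ± 0.68, adjusted p = 0.00318), and a newly assembled cysteine-rich gene of a stress-related family (scaffold 11421, bases 250221 to 251213) had 2.18, 10.3 and 4.2 CPM on Sp.SK roots, against 0.441, 0.499 and 0.528 CPM on U.NK roots (3.49 ± 0.51, adjusted p = 0.000756). In both the Sp.SK libraries themselves differed several-fold. A newly assembled FBD-domain gene (scaffold 6259, bases 279662 to 281379) also rose among these 12 (4.44 ± 1.03, adjusted p = 0.0128), with its call lost without Sp.SK replicate 3 (0.0685), U.NK replicate 2 (0.0537) or U.NK replicate 3 (0.0611). A newly assembled peptidase S49 gene (scaffold 5802, bases 37 to 7985) rose as well (4.0 ± 1.16, adjusted p = 0.0403), with its call lost without Sp.SK replicate 1 (0.0623), Sp.SK replicate 3 (0.198), U.NK replicate 1 (0.0789), U.NK replicate 2 (0.17) or U.NK replicate 3 (0.108). Of the 12 largest falls, those not yet given include the hypoxia-induced protein TEA011400 (scaffold 815, bases 261683 to 279835), with 1.01, 0.196 and 0.0848 CPM on Sp.SK roots, against 64.6, 255 and 214 CPM on U.NK roots (-8.74 ± 1.51, adjusted p = 0.0021), and, with calls lost when 1 library was left out, the pectinesterase TEA018039 (lost without Sp.SK replicate 1 (0.0845), Sp.SK replicate 2 (0.0763), Sp.SK replicate 3 (0.075) or U.NK replicate 2 (0.0602)), the P450 gene TEA033876 (lost without Sp.SK replicate 1 (0.0611) or Sp.SK replicate 2 (0.0538)) and a newly assembled reverse transcriptase gene (lost without Sp.SK replicate 1 (0.0868), Sp.SK replicate 2 (0.0749), Sp.SK replicate 3 (0.0709), U.NK replicate 2 (0.0743) or U.NK replicate 3 (0.0631)).

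Some called lower genes of 1 family lay near each other. Of the 1324 lower genes with a description, 140 (10.6%) had within 100 kb on the same scaffold a further lower gene that shared a Pfam description, against 12 of the 617 described higher genes (1.94%). These shares depend on how many genes were called and on how families are spaced, and were not tested.

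The other sides and treatments of “1601” are set beside these values. Those comparisons share libraries with the one above and are no independent evidence. Set against roots of plants without K on either side (U.SK), Sp.SK roots had 916 higher and 1508 lower genes (6.82% called). Set against the K-supplied side of the same boxes (Sp.NK), they had 12 higher and 466 lower genes (1.34%), whereas Sp.NK roots against U.NK roots gave 100 higher and 220 lower genes (0.9%). U.SK roots against U.NK roots gave 0 called genes (0%) with edgeR, where 1024 genes had an unadjusted p below 0.05, and limma voom called 70 and DESeq2 on the libraries compared called 172. The counts against U.SK and Sp.NK depended on single libraries: without Sp.SK replicate 1 they were 663 and 22, and over all libraries left out in turn they ran from 663 to 1958 against U.SK and from 22 to 528 against Sp.NK.

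The defence proteins summed to 4243 ± 588 CPM on Sp.SK roots, 13077 ± 5718 CPM on Sp.NK roots, 13805 ± 1450.1 CPM on U.SK roots and 16789.5 ± 1274 CPM on U.NK roots of “1601” (mean ± SD, n = 3 each). The K-free side of the split plants was thus the lowest of the 4, and roots without K on either side stood near those with K on both. In that list 30 of 101 genes fell relative to U.SK roots and 12 relative to Sp.NK roots. Expansins and XTHs summed to 1332 ± 255, 2016 ± 216, 1980.2 ± 248 and 2814 ± 549 CPM in the same order, and laccases and other multicopper oxidases to 1407 ± 172, 3149 ± 363, 2739.7 ± 371 and 2752 ± 274 CPM. The aquaporins summed to 20319 ± 6983, 14415 ± 3496, 8743 ± 1166 and 9782 ± 2315 CPM, with the Sp.NK roots between Sp.SK and the uniform treatments. The small-subunit ribosomal genes summed to 13192 ± 2162, 12588 ± 942, 8859 ± 615 and 9981 ± 1144 CPM.

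**Figure D4:**
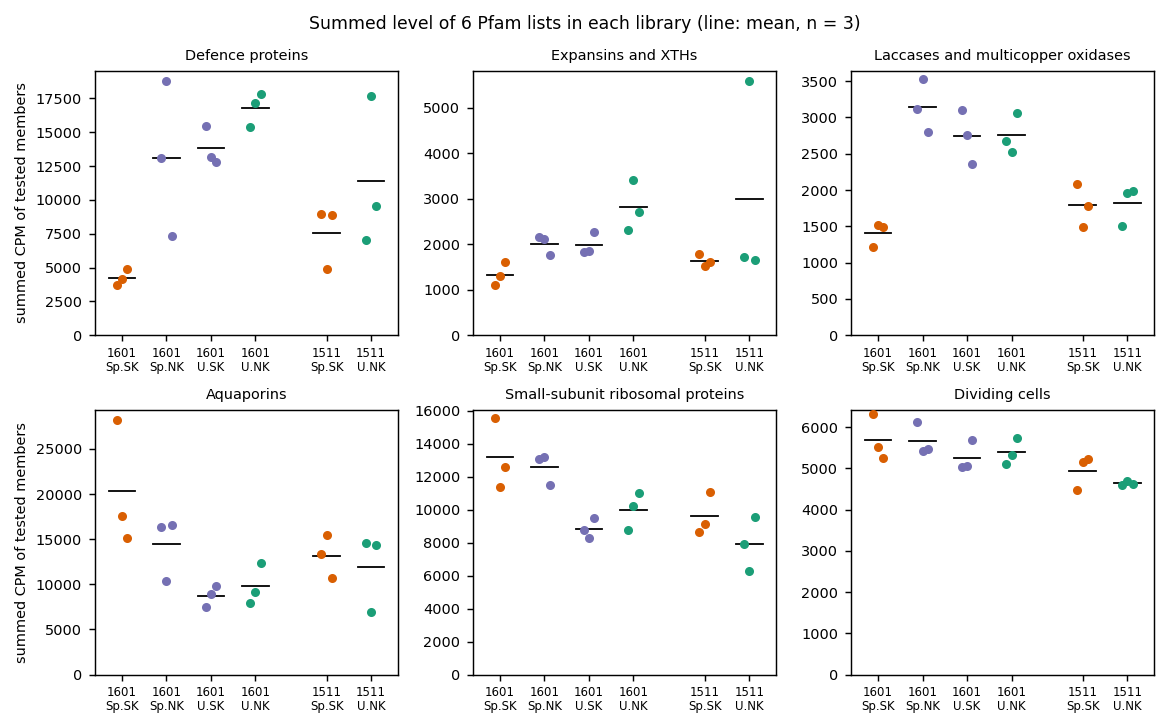
Summed level (CPM, y axis) of 6 Pfam lists in each library of “1601” (Sp.SK, Sp.NK, U.SK, U.NK) and of “1511” (Sp.SK, U.NK); dots are libraries and lines are means of 3. In “1601” the sum of the defence proteins is lowest and that of the aquaporins highest on Sp.SK roots.

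Single genes differed in how the 4 groups were ordered. TEA022587, the Bet v I gene, averaged 333 CPM on Sp.SK, 2972 CPM on Sp.NK, 2787 CPM on U.SK and 3942 CPM on U.NK roots, and its adjusted p was 0.00153 against U.SK and 0.00528 against Sp.NK. TEA032837, the thaumatin-like gene, averaged 2.89, 70.4, 453 and 1297 CPM in that order (adjusted p of 0.00835 against U.SK and 0.121 against Sp.NK). TEA020596, the multicopper oxidase, averaged 17.5, 147, 166 and 279 CPM (0.00457 against U.SK and 0.0118 against Sp.NK). TEA022010, the K transporter, averaged 5.72, 8.73, 23.4 and 37.1 CPM (0.0212 against U.SK and 0.784 against Sp.NK). TEA013439, the aquaporin, averaged 78, 75.7, 33.5 and 23.4 CPM (0.0318 against U.SK and 1 against Sp.NK).

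The same comparison in “1511”, which shares no library with “1601”, gave 0 called genes with edgeR, where 4455 genes had an unadjusted p below 0.05; limma voom called 6000 and DESeq2 on its 6 libraries called 181. The biological coefficient of variation was 0.275 among Sp.SK and 0.389 among U.NK roots of “1511”. The defence proteins summed to 7571 ± 2349 CPM on Sp.SK roots and 11428 ± 5549 CPM on U.NK roots of “1511”, with a median log2 fold change of -0.05 over the same 101 genes. The median of the cupins was -0.04, that of the expansins and XTHs -0.14, that of the aquaporins 0.15 and that of the small-subunit ribosomal genes 0.21. The median of the dividing-cell markers was 0.02 in “1601”, against 0.40 in “1511”.

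The difference between the genotypes in the Sp.SK over U.NK change was tested as an interaction term. It was called for 101 genes (0.284% of those tested), of which 80 had the lower change in “1601” and 21 the higher, and 95 of the 101 were also called within “1601”. With 1 library of “1601” left out, the count was 31 (Sp.SK 1), 26 (Sp.SK 2), 87 (Sp.SK 3), 45 (U.NK 1), 41 (U.NK 2) and 38 (U.NK 3). With 1 library of “1511” left out, it was 24 (Sp.SK 1), 93 (Sp.SK 2), 64 (Sp.SK 3), 18 (U.NK 1), 154 (U.NK 2) and 292 (U.NK 3), and with edgeR on the 12 libraries compared it was 32. By list, the change was called lower in “1601” for 3 defence proteins, 3 heme peroxidases, 3 cellulose synthases and wall proteins, 3 glycosyltransferases and 5 P450 genes, and for at most 2 genes of any other list. It was called higher for 1 gene each of the P450, glycosyl hydrolase family 1 and 3, amino acid, AP2/ERF, MYB and large-subunit ribosomal lists. TEA022587 had 1294 ± 585 CPM on Sp.SK and 1842 ± 757 CPM on U.NK roots of “1511” (log2 fold change -0.51, difference between genotypes -3.06 ± 0.646, adjusted p = 0.0469). The P450 gene TEA004802 had 159 ± 96.8 CPM on Sp.SK and 149.7 ± 57.3 CPM on U.NK roots of “1511” (difference -3.12 ± 0.552, adjusted p = 0.0185). Of genes that rose, the amino acid transporter TEA002147 had 84.9 ± 10.5 CPM on Sp.SK and 101 ± 23.1 CPM on U.NK roots of “1511” (difference 1.33 ± 0.246, adjusted p = 0.0253). For the thaumatin-like gene TEA032837 the difference was -5.84 ± 1.77 (adjusted p = 0.178) and for the aquaporin TEA013439 0.74 ± 0.463 (adjusted p = 0.598), so that neither was shown to differ between the genotypes.

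**Figure D5:**
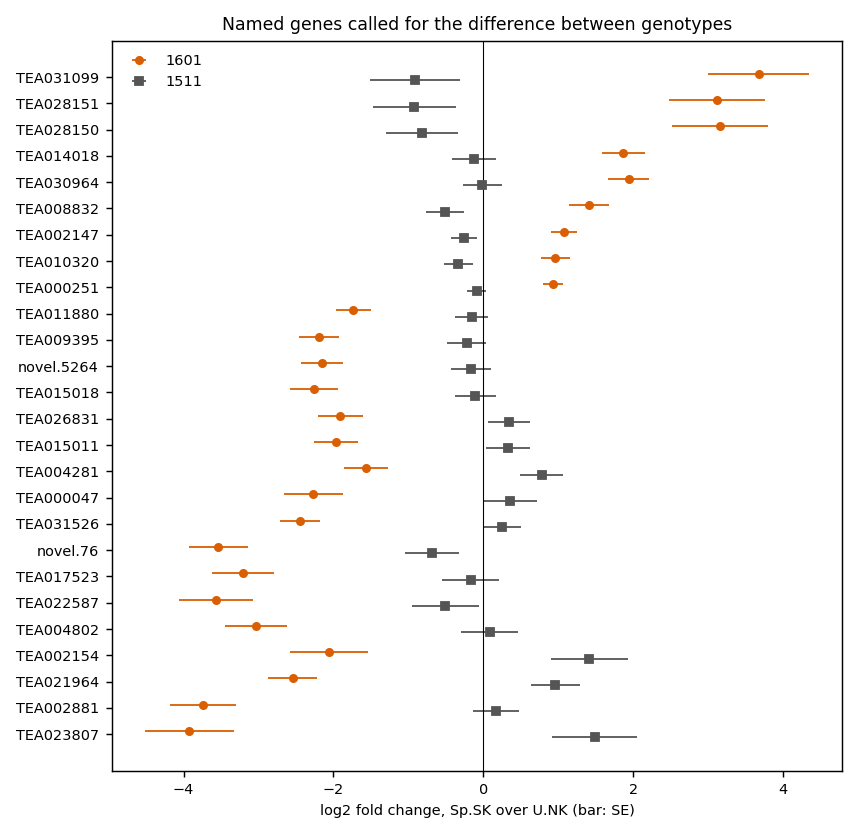
Log2 fold change, Sp.SK over U.NK (x axis, bars SE), of the named genes whose change differed between the genotypes, in “1601” and in “1511”. In “1601” the genes stand away from 0 on the side of their call, while in “1511” most lie near 0 or on the other side. The genes were chosen for a call in “1601” and for this difference, so the pattern follows from the choice.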

How the data were processed

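Roots of tea genotypes “1601” and “1511” were sequenced in 8 groups of 3 libraries. Per the submitters' processing notes CASAVA 1.7 and HISAT2 2.0.5 were used, and the study aligned cleaned paired-end reads to a scaffold-level tea genome with its gene models; the program that counted reads, and whether it used strand, are not given in the sources used here. The whole-number read counts per gene were deposited by the authors without normalization. The FPKM values deposited by the authors were checked against the counts (in 100% of genes within 1% of count over length and 1 size per library) and served no test. Of 48505 genes listed, 14573 are newly assembled, with no identifier of the reference annotation. Gene names were not added, since 0 of 48505 identifiers matched the reference table used here.

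The counts were tested with edgeR 4.0.16 in R 4.3.3: TMM scaling, its default filter on low counts (35557 genes kept), 1 mean for each of the 8 groups over all 24 libraries (16 residual degrees of freedom), quasi-likelihood tests and Benjamini-Hochberg adjustment at 0.05. CPM are counts over the TMM-scaled library size. The steps were tested on simulated data with 200 changed genes. Alternatives used DESeq2 1.42.0 size factors or tests, limma 3.58.1 voom with quality weights, other filters, a replicate block, the 12 or 6 libraries concerned, and each library left out; those that left out libraries of the U.SK and Sp.NK comparisons were chosen after seeing the data. Named genes were the 12 with the largest log2 fold change in each direction (called, described, a mean of at least 1 CPM over the 6 libraries, no overlap between the groups), per list up to 2 called members in each direction with the smallest p, and 7 genes the study names by function: 187 in all. The 48 Pfam lists and these rules were chosen with earlier results of these data known. Replicate numbers in Sp.SK and U.NK did not pair the samples (correlations of same-numbered deviations -0.137, -0.075 and -0.065). The depth was 13214833 to 22525843 counts in the 6 libraries compared, and intervals and floors cover counting error only.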

Additional observations from a re-analysis of the deposited data

Results flagged for a closer look

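The Sp.SK over U.NK change differed between the genotypes, by the interaction test of edgeR (adjusted p below 0.05 over all genes, reached by 0.284% of them), in 26 of the 187 named genes, with the lower change in “1601” for 17 and the higher for 9. These genes were named for their change in “1601”, so they are not an unbiased draw. Values are the log2 fold change in “1601” minus that in “1511”. Among transporters it was -3.92 for the MatE gene TEA002881, -1.97 for the amino acid permease TEA009395, -2.63 for the sugar transporter TEA000047 and 1.33 for the amino acid transporter TEA002147. Among wall and lignin genes it was -2.35 for TEA004281 and 1.92 for TEA008832 (both glycosyl hydrolase family 1), -3.48 for TEA002154 (family 9), -2.25 for the pectinesterase TEA026831, -2.0 for the newly assembled cellulose synthase given above, and -2.30 and -2.15 for the peroxidases TEA015011 and TEA015018. Among defence and receptor genes it was -3.04 and -3.06 for the Bet v I genes TEA017523 and TEA022587 and -3.51 for the receptor kinase TEA021964. Among enzymes of specialised and redox metabolism it was -2.69 and -2.86 for the glycosyltransferases TEA031526 and the newly assembled one given above, -3.12 and 1.99 for the P450 genes TEA004802 and TEA014018, and -1.58 for the ferric reductase TEA011880. Among transcription factors it was -5.41 for the WRKY gene TEA023807, 1.95 for the AP2 gene TEA030964 and 1.29 for the MYB gene TEA010320. It was 1.02 for the ribosomal protein gene TEA000251, 4.58 for TEA031099, and 3.97 and 4.04 for the LEA genes TEA028150 and TEA028151. Groups of 3 libraries were not tested for a library that stands apart.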

How the results depend on the processing

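The counts of called genes moved with the settings, while the named genes that were called kept their sign. So did every called gene that a fit tested. The named genes were picked for their changes in these same libraries, which the alternatives reuse, so a kept sign is no independent support. For Sp.SK against U.NK in “1601” (2554 called, 837 higher and 1717 lower), limma voom with quality weights called 9353 (4165 higher, 5188 lower), the 12 libraries of “1601” alone 4597 (1840 and 2757) and DESeq2 on the 6 libraries 4605 (1704 and 2901). With 1 library left out the count ran from 1042 to 1983 (210 to 691 higher, 783 to 1299 lower). DESeq2 size factors, both filters, a replicate block (2516 called) and leaving out newly assembled genes stayed within 1.5 times. Between Sp.SK and U.NK, replicate numbers share only a number. Against U.SK (2424) voom called 12611 and the 12 libraries 4264, with 663 to 1958 when 1 library was left out. Against Sp.NK (478) the counts were 3063, 1053 and 22 to 528. Sp.SK and Sp.NK roots came from the same boxes, but this count took no account of that. With the replicate block it was 418 (8 higher, 410 lower). Same-numbered deviations of Sp.SK and Sp.NK correlated at -0.034, 0.024 and -0.00047. Whether equal numbers mark the same box is not stated in the sources used here. The difference between genotypes (101) was called for 5091 genes by voom, 32 by edgeR and 684 by DESeq2 on the 12 libraries compared, and 18 to 292 with 1 library left out. Of the 180 named genes that were called, none changed sign, 115 stayed called in all 6 fits with 1 library left out, and 114 in every alternative. Sign changes were limited to named genes that were not called: TEA014414 (log2 fold change 0.28 with voom, -0.58 to 0.21 with 1 library left out, positive without Sp.SK replicate 1), TEA026325 (-0.44 to 0.0046, positive without Sp.SK replicate 2), TEA023084 (-0.26 to 0.59, negative without Sp.SK replicate 3 and, at -0.086, without U.NK replicate 1), TEA016242 (-0.24 to 0.31, negative without Sp.SK replicate 3 and, at -0.0035, without U.NK replicate 3) and TEA008079 (-0.27 to 0.056, positive without U.NK replicate 1). The causes were not tested.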
